A study of Danio rerio with 72 samples.

Results

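The genes described here encode the respiratory chain, complexes I to V of mitochondrial oxidative phosphorylation, in 6 regions of the zebrafish tail at 52 hours post fertilization. They are the genes of the deposited tables whose symbols, ignoring case, begin with nduf, sdh followed by a letter from a to d, uqcr, cox4 to cox8, atp5 or mt-. The rule found 116 of 25067 genes: 13 genes of the mitochondrial genome (mt- genes) and 103 genes of the nuclear genome. Complex I holds 37 nuclear and 7 mt- subunit genes, complex II holds 5 nuclear genes, and complex III holds 8 nuclear and 1 mt- gene. Complex IV holds 24 nuclear and 3 mt- genes, and complex V holds 16 nuclear and 2 mt- genes. cox7a3, a synonym of cox7a2l in current gene names, is counted with complex IV by its symbol. The remaining nuclear genes are 8 assembly factors of complex I, 4 assembly factors of complex II and atp5s, a gene related to complex V that is not counted as a subunit. ndufa4 and its relatives are counted with complex IV, where the protein is now placed, although their symbols carry the prefix of complex I.

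Complexes I and II pass electrons from metabolism to ubiquinone. Complex III passes them through cytochrome c to complex IV, and complex IV gives them to oxygen. Complexes I, III and IV pump protons across the inner mitochondrial membrane, and complex V, the ATP synthase, uses the return flow to make ATP. The mitochondrial genome encodes a few core subunits of every complex but II. The nuclear genome encodes all other subunits, so the complexes depend on transcripts from both genomes. In skeletal muscle the chain supplies ATP for contraction, and vertebrates make muscle-enriched and widely made versions of several complex IV subunits.

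Frozen tail sections were stained and cut by laser capture microdissection into the caudal vein plexus (CVP), the caudal vein (CV), the caudal artery (CA), left muscle (L), right muscle (R) and the neural region (N). Every region was taken from 6 numbered sections in each of 2 series of tables, named M and Z, which gives 36 libraries a series. The labels give the stage but not what separates M from Z, nor which sections came from the same embryo. Section was a term of the fit, so each p-value reflects the spread left between captures of a region over sections. It may be too small where sections share an embryo. All regions of a series share the same estimate of spread for a gene. CA, CV and CVP are called vascular regions below, after the area captured and not the cells in it, and L and R together muscle. Where 3 levels are given for a region, they are the lowest, the median and the highest of its libraries.

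In Z the L library of section 6 equals the rounded-up mean of the L libraries of sections 1 and 10 at all 7859 of its 7859 genes with reads. It was left out, and 71 of 72 libraries were used. Reads on genes, recovered from the steps of the FPKM values, ranged over 75007 to 875545 a library in M and 91104 to 4009980 in Z. In M the vascular libraries detected fewer nuclear members. The median was 73 in CVP, 56.5 in CV and 59.5 in CA, against 90.5 in L, 91 in R and 89.5 in N. A panel of 21 fast muscle genes held a median of 35.9% of all FPKM in L and 0.0902% in N of M. Of the vascular libraries CA of section 8 in M held 33.6%. Red cell genes held a median of 20.1% of all FPKM in CA of Z. Endothelial markers summed to 61.2 FPKM at the median in CV of M, against 1375 in CVP. Epidermal genes held a median of 3.90% of all FPKM in CV of M and 3.14% in CV of Z. Endothelial genes held 0.0133% in CV of M and 0.145% in CV of Z. In section 17 of M the epidermal genes summed to 32875 FPKM in CA and 29347 in CVP. By correlation over all genes 4 vascular libraries of M and 3 of Z were closest to another region. In M these were CA of section 8, closest to muscle, CA of section 15, closest to CVP, and CVP and CA of section 17, closest to CV. In Z they were CVP of section 22, closest to CV, and CVP and CV of section 25, each closest to the other's region. Counts without these libraries are given where they moved.

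At the median of the deposited values, nuclear sums were highest in muscle and lowest in the vascular regions. Sums of mt- genes were highest in muscle and lowest in N at the median on the deposited scale. When libraries are scaled by rank, this order does not hold for several single mt- genes, as given below. For the 103 nuclear genes of M, the lowest, median and highest sums were 2317, 5397 and 8066 FPKM in CVP, 3365, 5600.2 and 9952 in CV and 5619, 7013 and 15962 in CA. Outside the vessels the values were 21879, 27732 and 41461 in L, 29177, 31758 and 36330.2 in R and 8919, 10427 and 11027 in N. All L and R libraries lay above every vascular and neural one, and CA of section 8, at 15962 FPKM, was the highest of the vascular libraries. In Z the sums were 5229.7, 8075 and 9111 in CVP, 9007, 9669.7 and 11654 in CV and 11181, 12663 and 19847 in CA. Muscle and N gave 28198, 37126 and 44549 in L, 33886, 45021 and 49925 in R and 13716, 14669 and 16737 in N. All muscle libraries of Z were again above all others. CVP and CV of Z lay wholly below N, as did CVP of M, and the other vascular regions overlapped N. Within a section, the vascular mean over the muscle mean had a median of 0.194 in M and 0.251 in Z. With the mt- genes and the marker genes taken out of the library total, the value in M was 0.106. Vascular over N had a median of 0.724 in M and 0.731 in Z, below 1 in 6 of 6 sections of both series as deposited. With the mt- and marker genes out of the total it was 0.784 in M and 0.915 in Z, each with 1 of 6 sections above 1. In bulk captures like these, fewer cells of a type and less RNA per cell cannot be told apart.

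The 13 mt- genes summed in M to 34250.2, 50149 and 86412 FPKM in CVP, 37928, 52614 and 97015 in CV and 20174, 42132 and 61403 in CA. In muscle and N the values were 92092, 126734 and 219199 in L, 63102, 129944 and 205646 in R and 25255, 29335 and 34112 in N. In Z they summed to 53061, 77046 and 87787 in CVP, 65447, 78067 and 101536 in CV and 27496, 51599.8 and 82919.7 in CA. The other 3 regions had 62596, 111399.7 and 122419.8 in L, 69119, 95110.4 and 130496 in R and 26299.6, 31657 and 38949 in N. N overlapped CA and lay wholly below CVP, CV, L and R in both series as deposited, which rank scaling turns round for several single mt- genes. Within sections, vascular over muscle had a median of 0.380 in M, with 0 of 6 sections above 1. It had 0.711 in Z, with 1 of 6 above 1. Vascular over N had a median of 1.85 in M and 2.11 in Z. Muscle over N had 4.36 in M and 2.83 in Z, and both were above 1 in 6 of 6 sections as deposited. With mt- and marker genes out of the total, muscle over N was 9.74 in M and 4.67 in Z, and vascular over muscle was 0.201 in M. FPKM divides by the library total, so a sum also moves with what else a library holds. The mt- genes took a median of 4.33% of the reads of vascular regions, 11.2% of muscle and 2.70% of N in M.

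**Figure D1:**
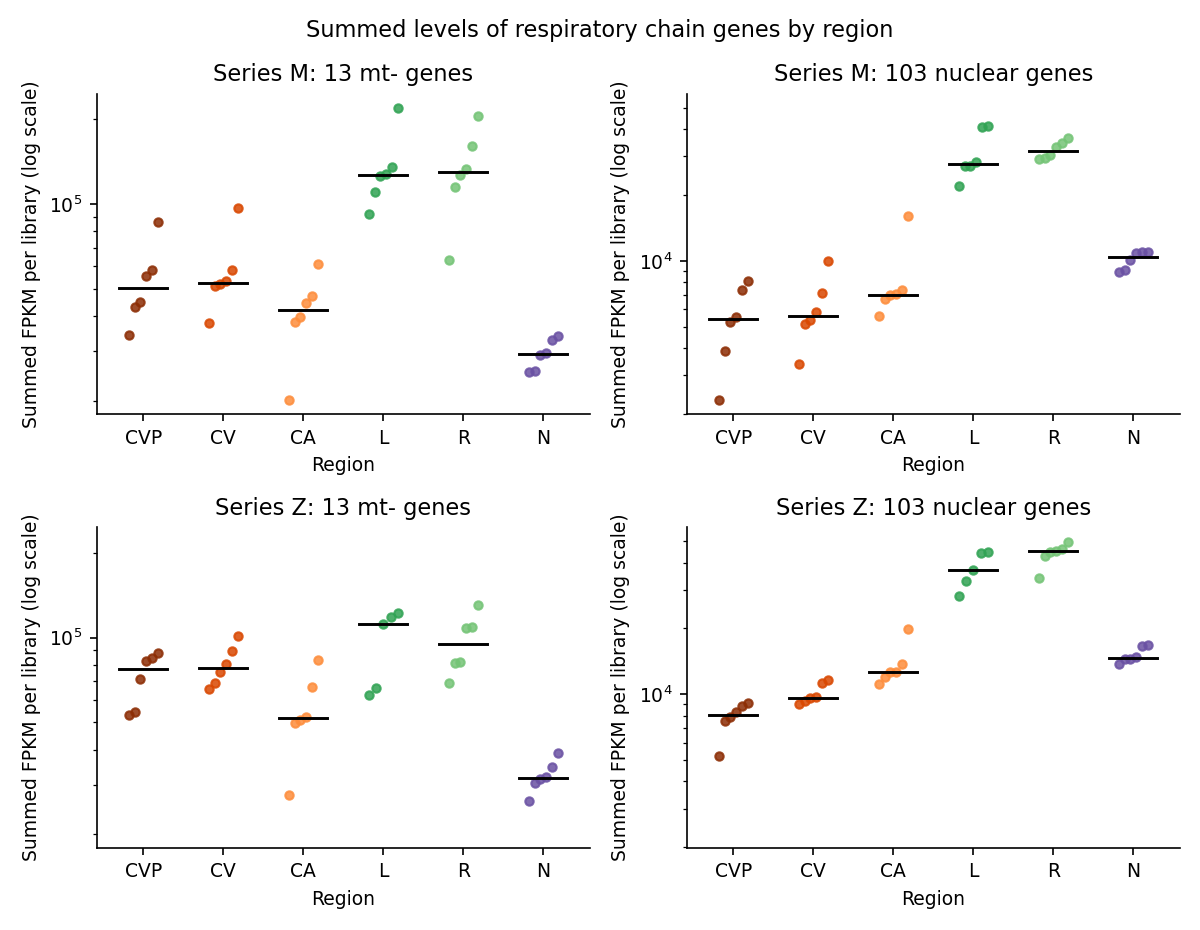
Summed FPKM of the 13 mt- genes and of the 103 nuclear respiratory chain genes in each library on a log scale, by region, with series M above series Z. Points are libraries and bars are medians. All L and R libraries lie above the N libraries for both gene groups as deposited, and the CVP, CV and CA libraries lie below L and R for the nuclear genes. Under quantile scaling the difference between muscle and N turned sign for several single mt- genes.

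The ratio of summed mt- FPKM to summed nuclear FPKM is taken within a library and does not depend on the library total. In M the lowest, median and highest ratios were 4.25, 9.34 and 23.9 in CVP, 5.36, 9.85 and 15.2 in CV and 2.74, 5.69 and 10.9 in CA. Outside the vessels the values were 2.65, 4.58 and 5.37 in L, 1.74, 4.13 and 6.75 in R and 2.33, 2.96 and 3.32 in N. In Z they were 7.21, 10.1 and 10.5 in CVP, 5.83, 8.07 and 9.58 in CV and 2.46, 4.10 and 5.24 in CA. Muscle and N gave 2.00, 2.66 and 3.001 in L, 1.81, 2.11 and 3.05 in R and 1.82, 2.19 and 2.35 in N. CV and CVP of Z overlapped with each other and lay above CA, L, R and N. In M CV and CVP overlapped with CA, L and R and lay above N. CA was the vascular region nearest to muscle, and its range overlapped with that of L and R in both series.

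Within sections the vascular ratio was above that of muscle in 6 of 6 sections of both series, with a median of 2.02 times in M and 2.98 times in Z. It was above that of N in 6 of 6 sections as well, by a median of 2.60 times in M and 3.37 times in Z. Muscle and N were closer, at 1.58 times in M, with 5 of 6 sections above 1, and 1.07 times in Z, with 4 of 6. Among vessels, CVP over CA had a median of 1.87 in M and 2.53 in Z, and CV over CA had 1.91 in M and 2.02 in Z. Both were above 1 in 5 of 6 sections of M and 6 of 6 of Z. The red cell share noted above also differed between these vessels in Z, with medians of 6.15% of FPKM in CVP, 5.31% in CV and 20.1% in CA. Fast muscle genes held medians of 1.13% in CVP, 0.309% in CV and 4.42% in CA of M, and 0.131%, 0.0474% and 4.91% of Z. Epidermal genes held medians of 0.427% in CVP, 3.90% in CV and 0.0474% in CA of M, and 0.840%, 3.14% and 0.0602% of Z. The part of these shares in the ratio was not tested.

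**Figure D2:**
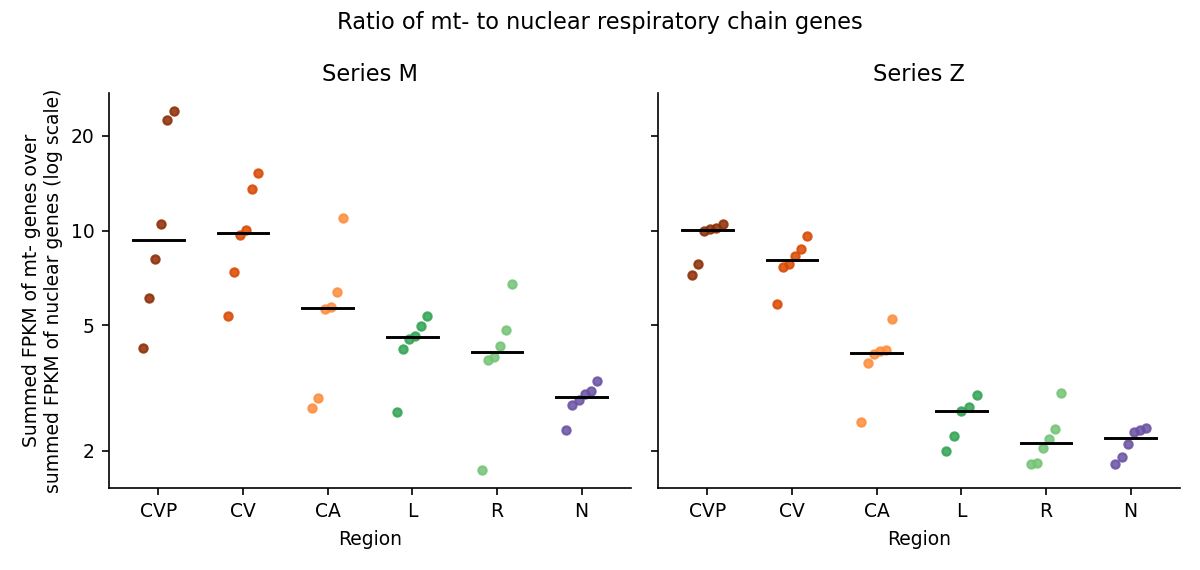
Ratio of summed mt- FPKM to summed nuclear respiratory chain FPKM in each library on a log scale, by region, for series M (left) and Z (right). Points are libraries and bars are medians; the medians are 9.34 in CVP and 9.85 in CV of M and 10.1 in CVP and 8.07 in CV of Z, against 2.96 in N of M and 2.19 in N of Z.

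For each complex with subunits from both genomes, the median ratio was higher in CVP and CV than in CA, L, R and N of the same series. For complex IV the median ratio of mt- to nuclear subunit FPKM was 20.4 in CVP, 21.3 in CV and 7.89 in CA. In muscle and N the values were 8.00 in L, 6.94 in R and 5.37 in N of M. In Z the medians were 18.7 in CVP, 15.9 in CV and 8.67 in CA. The other 3 regions had 4.64 in L, 3.51 in R and 3.89 in N. Complex V, whose mt- subunits are mt-atp6 and mt-atp8, had the lowest ratios. Its medians were 2.63 in CVP and 0.741 in N of M and 2.26 in CVP and 0.647 in N of Z. Medians of the nuclear makeup were close between region groups. Complex IV held a median of 31.6% of nuclear subunit FPKM in vascular regions, 32.6% in muscle and 33.7% in N of M. Complex V held 29.2% in vascular regions, 29.7% in muscle and 25.8% in N of M. Complex I held 27.7% in vascular regions, 25.4% in muscle and 30.3% in N of M.

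Gene by gene, nuclear respiratory chain transcripts were lower in the vascular regions than in muscle in every complex. Differences are between means of log2(FPKM + 1) with standard errors from limma, and a gene was called where its Benjamini-Hochberg adjusted p over all genes tested was under 0.05. Of the nuclear members tested, 81 of 96 fell and 2 rose in vascular regions of M, and 78 of 99 fell and 2 rose in Z. Over all genes tested, 5.35% were called lower and 19.1% higher in M, and 4.11% lower and 22.1% higher in Z. The median difference of the nuclear members was -3.36 in M and -2.25 in Z, against 0.71 and 0.65 for all genes tested. The same 74 of 96 nuclear members tested in both series fell in both, and the share of all genes called lower in both was not counted. The summed levels above differ by less than these medians, and many nuclear genes were at 0 in the shallow vascular libraries, which weighs on a mean of log2 values.

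Calls fell in all 5 complexes. Subunits of complex I fell at 34 of 35 tested in M and 34 of 36 in Z. Those of complex II fell at 4 of 4 in M and 3 of 4 in Z, and those of complex III at 7 of 7 and 7 of 8. Those of complex IV fell at 16 of 21 and 15 of 22, and those of complex V at 16 of 16 and 15 of 16. Of the assembly factors 4 of 12 fell in each series. sdhaf3, an assembly factor of complex II, was called in both, at -1.92 ± 0.71 in M and -3.12 ± 0.69 in Z. The call of sdhaf3 in M was lost without section 2, 6, 12, 15 or 17 (adjusted p = 0.051 to 0.19). In complex I ndufab1b, ndufa2 and ndufb10 had the largest falls by the mean of both series. ndufab1b, the acyl carrier subunit, differed by -5.16 ± 0.65 in M and -4.14 ± 0.79 in Z. ndufa2 differed by -5.41 ± 0.80 in M and -3.004 ± 0.61 in Z, and ndufb10 by -4.97 ± 0.78 and -3.24 ± 0.60, and both are accessory subunits. In complex II, sdhc and sdhdb, which anchor the enzyme in the membrane, fell by 4.21 and 3.67 on the log2 scale in M and by 2.15 and 2.77 in Z. sdha, the flavoprotein with the succinate site, fell by 2.21 in M and by 2.97 in Z. The call of sdha in M was lost without section 2, 6 or 15 (adjusted p = 0.071 to 0.086).

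In complex III the core subunit uqcrc2b differed by -4.10 ± 0.61 in M and -2.70 ± 0.57 in Z. uqcrh, the hinge subunit beside cytochrome c1, differed by -3.35 ± 0.51 in M and -2.40 ± 0.45 in Z, and the small subunit uqcrq by -3.26 ± 0.54 and -3.03 ± 0.57. In complex V the delta subunit gene atp5d, part of the central stalk, differed by -5.81 ± 0.78 in M and -1.71 ± 0.34 in Z. The gamma subunit gene atp5c1 differed by -3.50 ± 0.56 in M and -2.53 ± 0.47 in Z, and atp5g1, which encodes the rotating c ring, by -3.32 ± 0.53 and -3.37 ± 0.49. Every vascular library was below every muscle library for 16 of 96 nuclear genes tested in M and 12 of 99 in Z, a separation that 0.307% of all genes tested showed in M and 0.26% in Z. The opposite separation held for 0 members in either series, against 0.0986% of all genes tested in M and 0.23% in Z. cox4i1, the widely made version of complex IV subunit 4, had every vascular library below every muscle library in both series. In M cox4i1 had lowest, median and highest levels of 30.7, 185 and 509 FPKM in CVP, 21.7, 108 and 269.9 in CV and 30.5, 91.3 and 275 in CA. Outside the vessels the values were 893, 1098 and 1636 in L, 735, 1087 and 1399.6 in R and 375, 472 and 487 in N. CV and CA of M lay wholly below N for this gene and CVP overlapped N. The difference of cox4i1 from muscle was -3.31 ± 0.38 (adjusted p = 1.8e-08) in M and -2.17 ± 0.29 (adjusted p = 8.5e-07) in Z.

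Of the mt- genes 13 of 13 were called lower in vascular regions than in muscle of M and 9 of 13 in Z as deposited. Their median differences were -1.60 and -0.72, and of all genes tested 5.35% were called lower in M and 4.11% in Z. But under quantile scaling the counts of mt- genes were 1 higher and 2 lower in M and 1 higher and 0 lower in Z. Over all genes that scaling called 896 higher and 1554 lower in M and 1220 higher and 1093 lower in Z. Quantile scaling gives every library the same values by rank. A median of 10.5 of the 13 mt- genes stood among the 50 highest genes of the vascular libraries of M, 11 in muscle and 10 in N. mt-atp6, the proton channel subunit of complex V, differed by -1.94 ± 0.15 in M and -1.12 ± 0.15 in Z, and by -0.41 and -0.49 under quantile scaling. In M mt-atp6 had 2534, 3847 and 5998 FPKM in CVP, 2621, 3457 and 6014 in CV and 1426, 3389 and 4377 in CA. Muscle and N gave 7344, 12643 and 24022 in L, 6876, 13614 and 20016 in R and 1634, 1917 and 2239 in N. Its vascular libraries were all below its muscle libraries in M, which held for no other mt- gene and for no mt- gene in Z, against 0.307% of all genes tested in M and 0.26% in Z. mt-co1, the catalytic subunit of complex IV, differed by -1.11 ± 0.16 in M, was not called in Z at 0.19 ± 0.16, and under quantile scaling stood at 0.58 in M and 0.95 in Z, called higher in both. mt-co1 held a median of 8.66% of mt- FPKM in vascular regions, 7.16% in muscle and 11.5% in N of M, and 10.8%, 6.92% and 11.5% of Z.

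**Figure D3:**
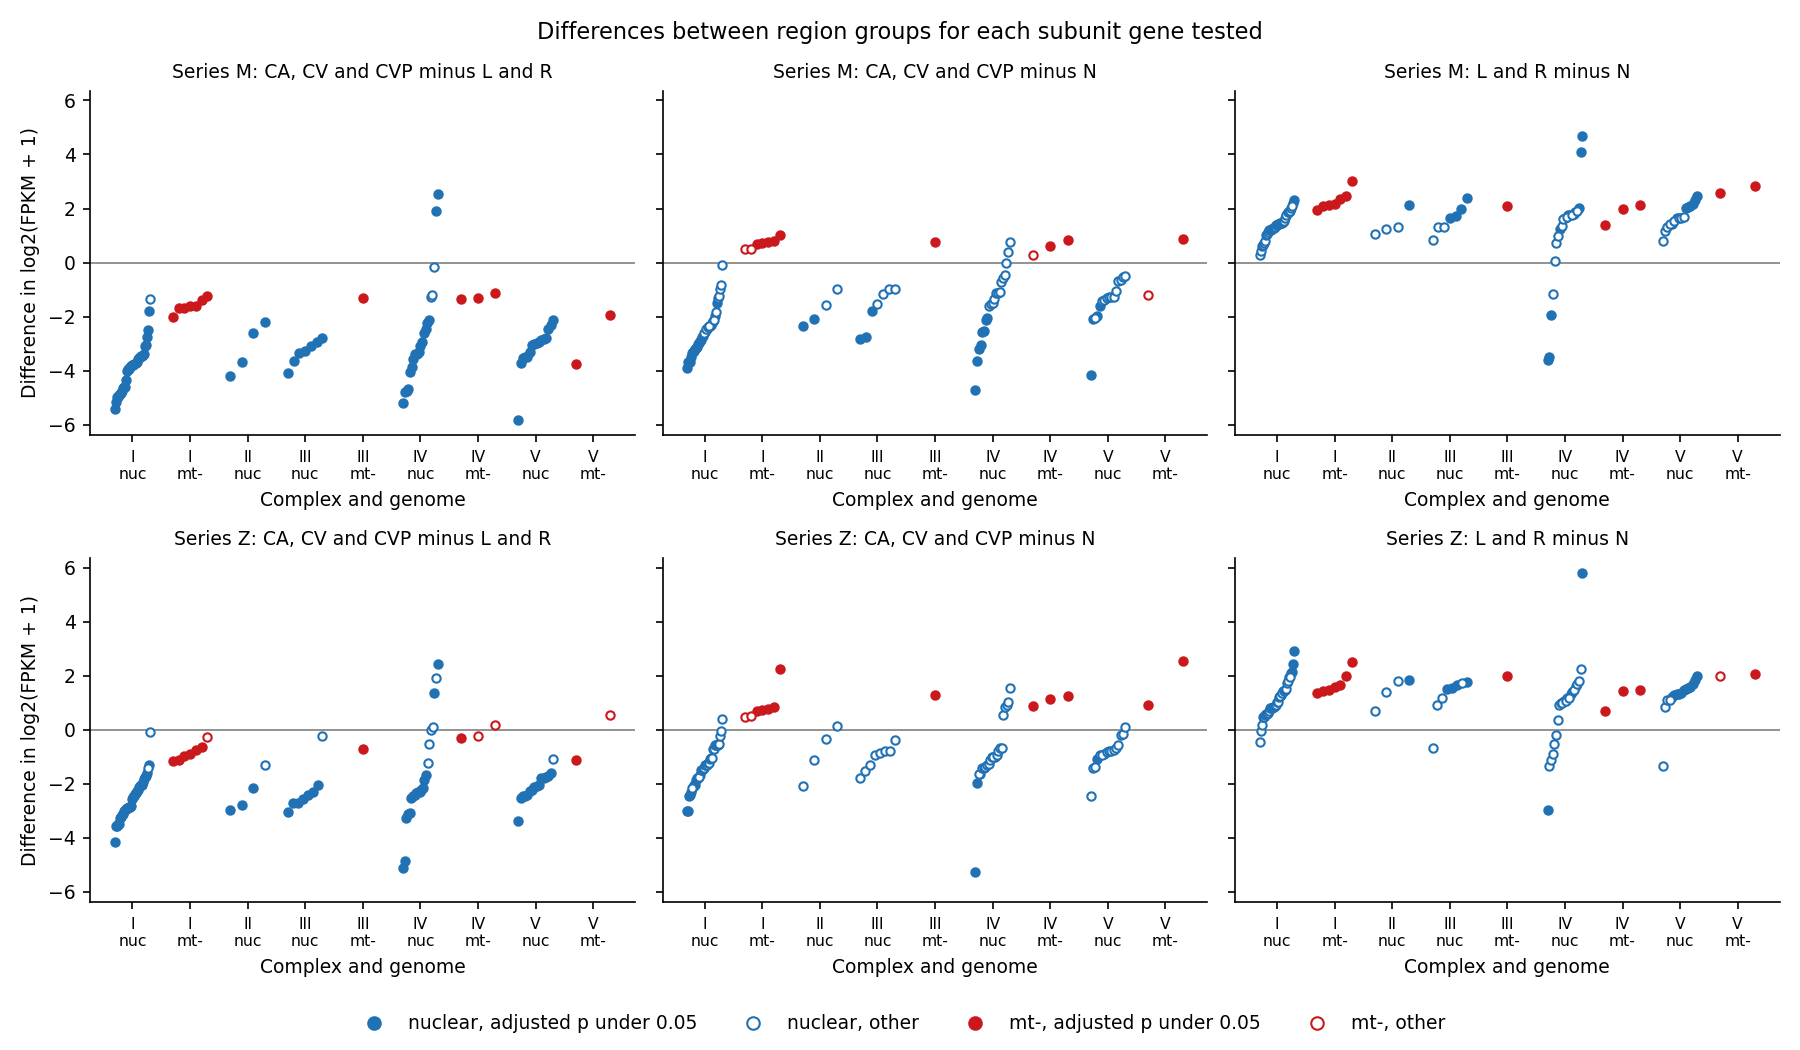
Difference in log2(FPKM + 1) between region groups for each subunit gene tested, by complex and genome, with series M above series Z; filled points had an adjusted p under 0.05 (blue nuclear, red mt-). Nuclear subunits lie mostly below 0 in vascular regions minus muscle, and the red mt- points lie above 0 in muscle minus N as deposited, a direction that turned for 7 called mt- genes of 13 in each series under quantile scaling.

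Against the neural region the 2 genomes parted. Of the nuclear members, 41 of 96 fell in vascular regions of M and 17 of 99 in Z, and 0 rose in either series. Over all genes tested 26.5% were called lower and 2.52% higher in M, and 22.6% lower and 5.51% higher in Z. In Z the share of nuclear members called lower was thus below that of all genes. The counts moved with single sections. They came to 22 without section 15 and 27 without section 12 in M, and to 8 without section 6 or 22, 9 without section 10 and 11 without section 1 or 25 in Z. With the mt- genes taken out of the library total the count in Z was 9, and with the marker genes taken out as well it was 3. Of the mt- genes, 9 of 13 rose in M and 11 of 13 in Z, with medians of 0.74 and 0.87, but quantile scaling gave 0 higher and 3 lower in M and 2 higher and 2 lower in Z. The median of all genes tested was -0.91 in M and -0.65 in Z, and of the 21 fast muscle markers 17 were called higher in vascular regions than in N of M and 0 in Z. The part of muscle RNA in these counts was not tested.

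The same 15 of 96 nuclear members tested in both series were called lower in both, and the share of all genes called in both was not counted. Of all genes tested, 26.5% were called lower in M and 22.6% in Z. In complex I 24 of 35 subunits fell in M and 11 of 36 in Z. ndufs4, an accessory subunit of the electron input module, differed by -3.34 ± 0.90 in M and -2.99 ± 0.81 in Z. ndufb10 differed by -3.90 ± 0.99 in M and -2.31 ± 0.74 in Z, and ndufc2, a membrane arm subunit, by -3.29 ± 1.07 and -2.43 ± 0.89. In M ndufs4 had 0, 14.7 and 109 FPKM in CVP, 0, 0 and 50.7 in CV, 0, 59.1 and 222 in CA and 26.7, 96.1 and 118 in N. It was at 0 in 5 of 6 CV libraries, while CVP and CA overlapped with N. The call of ndufb10 in Z was lost without section 10 (adjusted p = 0.07). That of ndufc2 was lost without section 6 or 15 (adjusted p = 0.062 to 0.12) in M and without section 1, 10 or 22 (adjusted p = 0.062 to 0.15) in Z. Complex IV subunits fell at 8 of 21 in M and 4 of 22 in Z, and those of complex V at 4 of 16 and 2 of 16. Those of complex III fell at 3 of 7 and 0 of 8, and complex II at 2 of 4 and 0 of 4. Complexes II to V of Z thus lay below the 22.6% of all genes called lower, and complex V of M near the 26.5%. Called in both series were cox4i1, cox8a and ndufa4 of complex IV and atp5l, the g subunit of complex V. atp5l differed by -2.08 ± 0.65 in M and -0.91 ± 0.33 in Z. In Z the calls were lost without section 6, 10, 19, 22 or 25 (adjusted p = 0.054 to 0.22) for atp5l and section 6, 10, 19 or 22 (adjusted p = 0.054 to 0.11) for cox4i1. They were also lost without section 1, 6, 10, 22 or 25 (adjusted p = 0.06 to 0.15) for cox8a. The call in Z of cox7b, which was not called in both series, was lost without section 1, 6, 10, 19 or 22 (adjusted p = 0.053 to 0.14). In M calls were lost without section 12 (adjusted p = 0.066) for atp5l and section 6, 15 or 17 (adjusted p = 0.053 to 0.071) for cox8a.

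Among the mt- genes, mt-cyb, the mitochondrial subunit of complex III, differed between vascular regions and N by 0.77 ± 0.19 in M and 1.28 ± 0.20 in Z, with -0.66 and -0.21 under quantile scaling. mt-co3 of complex IV differed by 0.84 ± 0.15 in M and 1.14 ± 0.12 in Z, with -0.42 and -0.72 under quantile scaling. mt-nd3, mt-nd2 and mt-nd5 of complex I, mt-co2 of complex IV and mt-atp6 were the others called in both series on the deposited scale. Of these mt-nd2, mt-co2 and mt-atp6 turned negative in M, and mt-co2 and mt-atp6 in Z, under quantile scaling. The calls of mt-nd3 and mt-nd5 in M were lost without section 8, 12, 15 or 17 (adjusted p = 0.078 to 0.11) and section 8, 12 or 15 (adjusted p = 0.054 to 0.15). Those of mt-nd2 and mt-nd5 in Z were lost without section 10 (adjusted p = 0.054) and section 1, 10, 19 or 25 (adjusted p = 0.076 to 0.14). For no mt- gene did every vascular library lie above every N library in either series, against 0.126% of all genes tested in M and 0.332% in Z.

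Nuclear members called between muscle and N were mostly higher in muscle. Of the nuclear members 25 of 96 rose and 3 fell in M, and 30 of 99 rose and 2 fell in Z. Over all genes tested 3.27% were called higher and 49.1% lower in M, and 3.49% higher and 41.8% lower in Z. The medians of the nuclear members were 1.43 in M and 1.16 in Z, against -1.63 and -1.32 for all genes. Every muscle library was above every N library for 41 of 96 nuclear genes tested in M and 25 of 99 in Z, against 1.95% of all genes tested in M and 1.18% in Z. The count called in either direction was 16 without section 17 and 18 without section 2 in M, and 18 without section 19 and 19 without section 10 or 22 in Z. It was 78 in M and 59 in Z when only muscle and N were fitted. The main fit takes the spread of a gene from all regions, the vascular ones included.

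Subunits of complex V rose at 8 of 16 in M and 12 of 16 in Z, and those of complex III at 4 of 7 and 4 of 8. In complex IV 9 rose and 3 fell of 21 in M, and 6 rose and 1 fell of 22 in Z. In complex I 3 of 35 rose in M and 7 of 36 in Z, and in complex II 1 of 4 rose in each series. The c ring gene atp5g3b differed by 2.47 ± 0.41 in M and 1.86 ± 0.59 in Z. In M atp5g3b had 1422, 1747 and 2662 FPKM in L, 1616, 1892 and 2451 in R and 229, 347 and 449 in N, with no overlap between muscle and N. atp5g1, a second gene for the same ring, differed by 2.04 ± 0.71 in M and 1.98 ± 0.65 in Z. uqcrfs1, the iron-sulfur subunit of complex III, differed by 1.64 ± 0.65 in M and 1.52 ± 0.59 in Z, and uqcrh by 2.39 ± 0.69 and 1.53 ± 0.59. The complex I subunit ndufv3 differed by 2.21 ± 0.89 in M and 2.10 ± 0.60 in Z. Calls were lost without section 2 or 17 (adjusted p = 0.053 to 0.058) for atp5g1 in M. They were also lost there without section 2, 8, 15 or 17 (adjusted p = 0.052 to 0.089) for uqcrfs1 and section 2, 6, 8 or 17 (adjusted p = 0.062 to 0.089) for ndufv3. In Z they were lost without section 22 (adjusted p = 0.052) for atp5g1 and section 10 (adjusted p = 0.051) for atp5g3b, as well as section 1, 10, 19, 22 or 25 (adjusted p = 0.058 to 0.091) for uqcrfs1 and section 10, 19, 22 or 25 (adjusted p = 0.082 to 0.11) for uqcrh.

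All 13 mt- genes in M and 12 in Z were called higher in muscle than in N, against 3.27% of all genes tested in M and 3.49% in Z. The medians of the mt- genes were 2.15 and 1.60, against -1.63 and -1.32 for all genes. Quantile scaling instead gave 2 mt- genes higher and 3 lower in each series. Over all genes that scaling called 1338 higher and 2076 lower in M and 1195 higher and 2232 lower in Z. mt-atp6 differed by 2.82 ± 0.21 in M and 2.05 ± 0.20 in Z, and by 0.020 and -0.090 under quantile scaling. mt-nd3 differed by 3.02 ± 0.39 in M and 1.98 ± 0.24 in Z, and by 1.12 and 0.54, no longer called, under quantile scaling. mt-nd4l differed by 2.18 ± 0.64 in M and 2.52 ± 0.70 in Z and stayed called higher under quantile scaling, at 2.22 in M and 2.89 in Z, while mt-co1, at 1.38 ± 0.21 in M and 0.68 ± 0.21 in Z as deposited, was then called lower in both. mt-atp8 overlaps mt-atp6 on the genome and mt-nd4l overlaps mt-nd4, and mt-nd6 lies on the other strand from the rest, so counting could split or mix their reads. The strand setting is not given in the sources used here. As deposited, every muscle library lay above every N library for 12 of 13 mt- genes in M and 9 in Z, against 1.95% and 1.18% of all genes tested, a direction that turned for 7 called genes of each series under quantile scaling.

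Several complex IV subunits are encoded by sets of close relatives, whose members differed in where they were detected. cox5b2, 1 of a pair of subunit 5B genes, was listed at 0 in all CVP, CV, CA and N libraries of M, against 0, 32.7 and 133 FPKM in L and 0, 46.7 and 102 in R. In Z cox5b2 was at 0 in every N library and had 30.2, 152 and 164 FPKM in L and 0, 37.0 and 143 in R. Its vascular reads in Z came from the 3 vascular libraries of section 25 and 1 further CA library. The highest values were 8.59 in CVP, 38.8 in CV and 44.3 in CA. Fast muscle genes summed to 212 FPKM in CVP, 34.2 in CV and 31586 in CA of section 25, where the CA median of Z was 31449. A panel of 9 slow muscle genes summed to 54.5 FPKM in CVP, 9.42 in CV and 4371 in CA of section 25, against a CA median of 30.8. The part of muscle genes in these values was not tested. Vascular minus muscle was -4.68 ± 0.55 in M and -4.87 ± 0.61 in Z, and muscle minus N was 4.68 ± 0.74 in M and 5.79 ± 0.80 in Z. cox5b2 could reach the level needed for testing, an FPKM of 1 in 6 libraries, only through its muscle libraries. These differences are therefore a description, and their calls are no separate support. The zeros of the other regions also enter the shared spread, so the standard errors may be too small for muscle. cox5b2 made up a median of 20.8% of the summed cox5b2 and COX5B level in muscle of M and 38.4% in Z, and 0% in N of both series. COX5B itself differed between vascular regions and muscle by -2.11 ± 0.44 in M and -1.66 ± 0.32 in Z.

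ndufa4 was lower in the vessels than in muscle and N. In M ndufa4 had 0, 0 and 39.9 FPKM in CVP, 0, 0 and 7.58 in CV and 0, 0 and 11.7 in CA. In muscle and N the values were 16.6, 78.1 and 202 in L, 3.50, 36.1 and 148 in R and 18.5, 49.7 and 79.4 in N. In Z it had 0, 1.78 and 23.2 in CVP, 0, 4.33 and 31.4 in CV and 0, 0 and 28.8 in CA. The other 3 regions had 19.2, 198 and 246 in L, 15.6, 162 and 259 in R and 51.4, 131 and 168 in N. Every vascular library of Z lay below every N library, and ndufa4 was the only nuclear member of which that was so, against 4.27% of all genes tested. In M the same separation held for 0 members, against 2.85% of all genes tested. Vascular minus N was -4.73 ± 0.76 (adjusted p = 6.2e-06) in M and -5.27 ± 0.82 (adjusted p = 3.2e-06) in Z. Vascular minus muscle was -4.80 ± 0.60 in M and -5.10 ± 0.67 in Z, and muscle minus N was not called, at 0.073 ± 0.80 in M and -0.18 ± 0.88 in Z. Its relative ndufa4l fell in vascular regions against muscle, by 2.25 in M and 2.47 in Z on the log2 scale. It was not called against N, at -1.51 ± 0.67 in M and -1.28 ± 0.76 in Z. ndufa4 made up a median of 0% of the summed level of the pair in vascular regions, 6.58% in muscle and 12.7% in N of M, and 0%, 21.01% and 38.4% of Z. NDUFA4L2 and ndufa4l2a were too low to be tested in either series. Reads of close relatives may be shared in counting, so the split within such pairs is uncertain.

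**Figure D4:**
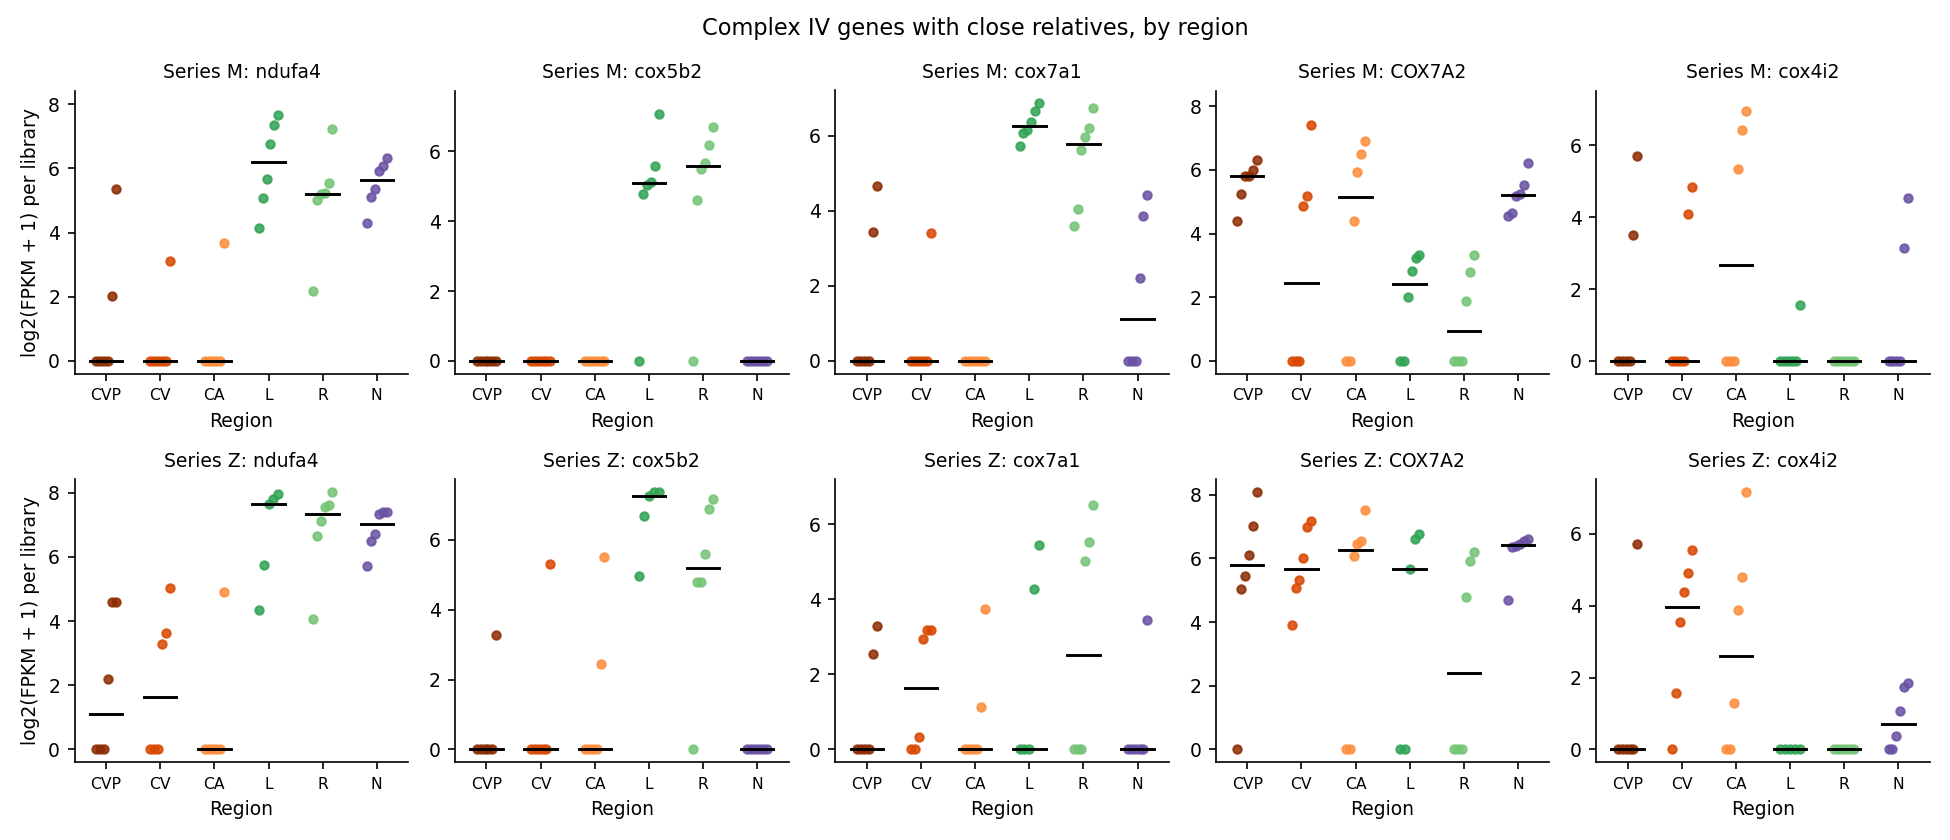
Levels of ndufa4, cox5b2, cox7a1, COX7A2 and cox4i2 as log2(FPKM + 1) in each library, by region, with series M above series Z. Points are libraries and bars are medians; cox5b2 is at 0 in all N libraries of both series, and ndufa4 is at or near 0 in most CVP, CV and CA libraries.

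cox7a1, the subunit 7A version that mammals enrich in heart and skeletal muscle, was higher in muscle in M and not called in Z. In M cox7a1 had 0, 0 and 24.2 FPKM in CVP, 0, 0 and 9.63 in CV and 0, 0 and 0 in CA. Outside the vessels the values were 51.7, 75.9 and 115 in L, 11.1, 54.4 and 106 in R and 0, 1.83 and 20.2 in N. For this gene 1 CVP library lay above the lowest R library while all other vascular libraries lay below muscle. Vascular minus muscle was -5.19 ± 0.56 (adjusted p = 6.4e-09) in M and -1.24 ± 0.75 (adjusted p = 0.22) in Z, and the difference between series was itself called. The call in M held without any 1 section. In Z cox7a1 had 0, 0 and 42.6 FPKM in L and 0, 15.8 and 89.4 in R. COX7A2, another subunit 7A entry, ran the other way, with muscle minus N at -3.61 ± 1.02 in M and -2.95 ± 1.19 in Z. It was the 1 nuclear member called lower in muscle than in N in both series, a call lost in Z without section 1, 10 or 22 (adjusted p = 0.088 to 0.17). In M COX7A2 had 0, 4.59 and 9.01 FPKM in L, 0, 1.36 and 9.10 in R and 22.6, 36.3 and 73.5 in N, and every muscle library was below every N library, as for 18.4% of all genes tested. cox7a2a, also of the group, differed between vascular regions and muscle by -4.77 ± 0.72 in M and -2.54 ± 0.40 in Z. COX7A2 is a synonym of cox7a2a in current gene names, so whether these entries are separate genes is not settled.

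cox4i2, the version of subunit 4 that mammals make most in lung, was the 1 nuclear member called higher in vascular regions than in muscle in both series, at 1.92 ± 0.69 (adjusted p = 0.04) in M and 2.43 ± 0.63 (adjusted p = 0.004) in Z. In M cox4i2 had 0, 0 and 51.2 FPKM in CVP, 0, 0 and 27.6 in CV and 0, 19.5 and 122 in CA. Muscle and N gave 0, 0 and 1.96 in L, 0, 0 and 0 in R and 0, 0 and 22.2 in N. In Z it had 0, 0 and 50.95 in CVP, 0, 15.2 and 45.9 in CV and 0, 7.62 and 142 in CA. In muscle and N the values were 0, 0 and 0 in L, 0, 0 and 0 in R and 0, 0.687 and 2.57 in N. Levels above 0 stood in 2 CVP, 2 CV and 3 CA libraries of M and in 1 CVP, 5 CV and 4 CA libraries of Z. They stood in 1 muscle library of M and 0 of Z, and the groups overlapped at 0. cox4i2 could therefore reach the level needed for testing, an FPKM of 1 in 6 libraries, only through vascular libraries. With muscle almost all at 0, a call could go only in this direction, so the calls are no separate support. The call of cox4i2 in M was lost without section 2, 6 or 8 (adjusted p = 0.083 to 0.25). The other nuclear member called higher was COX7A2 in M, at 2.54 ± 0.76, a call lost without section 2 or 17 (adjusted p = 0.056 to 0.11). In Z it was cox4i1l, at 1.36 ± 0.49, lost without section 22 or 25 (adjusted p = 0.13 to 0.23). cox6b1, a subunit on the cytochrome c side, and cox8b, a small subunit, were called lower in muscle than in N of M, at -3.51 ± 1.09 and -1.93 ± 0.71. The call of cox8b was lost without section 2, 6, 8 or 17 (adjusted p = 0.065 to 0.13). They were not called in Z, at -1.10 ± 1.07 and 0.92 ± 0.79, and the difference between the series was not called for either.

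Between vessels few members were called. In CV minus CA, 2 members rose and 5 fell of 109 in M, and 4 rose and 0 fell of 112 in Z. Over all genes 1.41% were called higher and 1.26% lower in M, and 3.41% higher and 0.894% lower in Z. mt-cyb was the member called in both series, at 1.09 ± 0.23 (adjusted p = 0.004) in M and 1.099 ± 0.25 (adjusted p = 0.0051) in Z. It was 0.81 in M, no longer called, and 1.03 in Z under quantile scaling. In M mt-cyb had 4430.3, 7301 and 9704 FPKM in CV and 1174, 3910.3 and 5324 in CA, and in Z it had 6124, 7471 and 9547 in CV and 809.8, 3734 and 7844 in CA. CV was the higher at the median as deposited and by rank scaling in both series, but the groups overlapped. The call was lost without section 6 (adjusted p = 0.06) in M and section 1 (adjusted p = 0.073) in Z. When only CV and CA were fitted, mt-cyb stayed called in M (adjusted p = 0.012) and not in Z (adjusted p = 0.083), and 2 members of M and 1 of Z were called in all. The other calls were cox7c of complex IV, atp5h of complex V, cox5ab, ndufs1 and ndufs4, all lower, and ndufb8, higher, in M. In Z they were mt-co1, mt-co2 and mt-co3, higher as deposited and positive under quantile scaling too. In M 2 members were called without section 6 and 3 without section 8, whose CA library was closest to muscle. In Z 1 member was called without section 1. Of the marker lists, 7 of 9 epidermal genes were called higher and 17 of 21 fast muscle genes lower in CV than in CA of both series. Their part in the calls of members was not tested.

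In CVP minus CA, 0 members rose and 2 fell in M, cox6a1 and uqcrq, and 3 rose and 3 fell in Z. Over all genes the calls were 3% higher and 0.372% lower in M and 3.75% and 0.707% in Z. The members that rose in Z were mt-co1, at 0.996 ± 0.24 (adjusted p = 0.011), mt-co2 and mt-cyb, all 3 still called under quantile scaling. Each call was lost without at least 1 section, that of mt-co1 without section 1 or 10 (adjusted p = 0.053 to 0.055). Those that fell were cox8b, ndufa7 and ndufs6. Only mt-co1 remained called in Z, and 0 members in M, when CVP and CA were fitted alone. The count in M was 0 without section 6 or 12, 1 without section 8, 4 without section 15 and 10 without the libraries closest to another region, and in Z it was 1 without section 10. In CVP minus CV, atp5h and the membrane anchor gene sdhc rose and uqcrq fell in M, against 4.24% of all genes higher and 0.657% lower. In Z 0 members were called, against 0.199% higher and 0.242% lower, and 9 members had an unadjusted p under 0.05 by limma. The count in M was 6 without section 17, 5 without section 15 and 8 without the libraries closest to another region.

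Left and right muscle gave 0 calls among members by limma in both series, with 0 members of M and 2 of Z at an unadjusted p under 0.05 and 0 calls by limma-voom on the recovered reads. 0% of all genes were called in M and 0.0121% in Z. The nuclear sums of L over R had a median of 0.896 in M, with 2 of 6 sections above 1, and 0.867 in Z, with 0 of 5 above 1.

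When the region differences of M and Z were compared in 1 fit, most calls of members fell in vascular minus muscle. M minus Z was called there for 6 of 109 members, a share above the 0.629% of all genes called in either direction. In that comparison 33 of 109 members had an unadjusted p under 0.05 by limma. For vascular minus N, M minus Z was called for 1 of 109 members, against 0.328%, and 9 had an unadjusted p under 0.05 by limma. It was called for 0 members in muscle minus N, against 0%, where 9 members had an unadjusted p under 0.05 by limma. In vascular minus muscle all 6 had the more negative value in M. Vascular libraries of M were shallower, with median reads of 267845.5 in CVP, 106468.5 in CV and 127685.5 in CA. In Z the medians were 961353.5, 857256 and 589757. The part of depth in these differences was not tested. M minus Z was -4.10 ± 0.90 (adjusted p = 0.0087) for atp5d, -3.96 ± 0.95 (adjusted p = 0.021) for cox7a1 and -4.30 ± 1.00 (adjusted p = 0.017) for mt-atp8. It was -1.31 ± 0.23 (adjusted p = 6.1e-04) for mt-co1, -1.12 ± 0.18 (adjusted p = 8.5e-05) for mt-co2 and -0.995 ± 0.16 (adjusted p = 9.4e-05) for mt-co3. Without section 6 of M the count was 3. In vascular minus N the member was cox8b, at -4.22 ± 1.01 (adjusted p = 0.037), a call lost without any of sections 2, 6, 8 and 15 of M or 6, 19, 22 and 25 of Z.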

How the data were processed

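RNA was taken from laser captured regions of cresyl violet stained, OCT-embedded frozen tail sections. Polyadenylated RNA was reverse transcribed and amplified by PCR, and libraries were made with a NEBNext Ultra kit, per the labels' protocols. The deposited tables give FPKM values per protein-coding gene, made by the authors. The submitters' processing notes name FastQC, HISAT, HTSeq, DESeq2 and the build GRCz10, with no versions. Strand setting and filters are not given in the sources used here. PCR copies are not separate molecules, and 0 can be a failed capture.

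Each series was fitted alone with limma 3.58.1 in R 4.3.3 on log2(FPKM + 1), with region and section as terms, over genes that reached an FPKM of 1 in 6 or more libraries (18263 genes in M, 16547 in Z), two-sided, with Benjamini-Hochberg adjustment over all of them. Both series were fitted jointly over 15571 genes for the difference between series. Sums, ratios and figures used Python 3.11.15 with pandas 2.3.3 and matplotlib 3.10.9. Of 116 members, 109 were tested in M and 112 in Z. cox6a2, ndufa12, NDUFA4L2, ndufa4l2a, ndufa9b, sdhda and uqcrb were not tested in M, nor ndufa12, NDUFA4L2, ndufa4l2a and sdhda in Z, because too few libraries passed. Whole reads were recovered from the FPKM steps for depth and for limma-voom as an alternative. The regions of 1 section pair the libraries, so the section was kept as the replicate block. Deviations of libraries of the same section had a median correlation of 0.006 in M and 0.017 in Z. On simulated data the fit recovered known changes planted in genes of higher level. The simulation gave a gene the same normal spread in all regions. It does not test genes with many values at 0 or regions of unequal spread. The left muscle library of section 6 in Z was left out. Alternatives changed the pseudocount, the filter, the scaling, the library total, the block, the regions fitted and each section.

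Members, lists and tests were chosen with earlier results of these data known. Genes named were drawn from the mt- genes and the paralogous subunits. Others were up to 3 members per complex and comparison called alike in both series with the largest mean change. Several paralogous subunits, such as cox5aa, cox6b2, cox7a3 and atp5g3a, have no value printed. Also named are members called against the majority, the members called between vessels, and assembly factors and genes of other mitochondrial lists called in both series. For all else counts are given. Summed levels have no p-value.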

Additional observations from a re-analysis of the deposited data

Results flagged for a closer look

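Within a region of 5 or 6 libraries, the highest or lowest library was set apart where its gap to the nearest other library took up more of the whole range than Dixon's critical share. Of 219 groups tested, 37 held such a library. The groups covered the sums, their ratio and a chosen part of the members named here, so other named members were not screened. A rate of 1 in 20 groups would give about 11, but that rate holds for normally distributed values. The test was run on FPKM without logs. In several groups, such as ndufa4 in CA and CV of M, the library set apart was the only one with the gene detected. The excess over 11 therefore does not show how many libraries are unusual.

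Several of these libraries come from the same captures. In CA of section 8 in M the nuclear sum reached 15962 FPKM against a median of 7013, ndufa4l reached 892 against 59.2, atp5g3b 1548 against 296 and ndufa4 11.7 against 0. Fast muscle genes took up 33.6% of its FPKM. In section 25 of Z the nuclear sum of CA reached 19847 FPKM against a median of 12663, and ndufa4 reached 28.8 in CA. cox5b2 reached 8.59 in CVP, 38.8 in CV and 44.3 in CA there, each against a median of 0. Fast muscle genes summed to 212 FPKM in CVP, 34.2 in CV and 31586 in CA of that section, where the CA median of Z was 31449. Slow muscle genes summed to 54.5 FPKM in CVP, 9.42 in CV and 4371 in CA of that section, against a CA median of 30.8. The part of muscle genes was not tested. In section 17 of M the mt- sum reached 219199 FPKM in L against a median of 126734 and 97015 in CV against 52614. mt-co3 reached 57962 in L and mt-atp6 6014 in CV.

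Among the mt- genes, mt-cyb gave 11435 FPKM in CVP of section 12 in M (highest, median 4393) and 1735 FPKM in N of section 1 in Z (lowest, median 2374). For ndufa4 the further values were 7.58 in CV of section 6, 39.9 in CVP of section 2 and 148 in R of section 6 in M, and 31.4 in CV of section 10 in Z. ndufa4l in N of section 25 in Z stood at 323 FPKM, and cox5b2 in L of section 2 in M at 133.

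cox7a1 gave 9.63 FPKM in CV of section 8 in M (highest, median 0), 12.5 FPKM in CA of section 19 in Z (highest, median 0) and 9.91 FPKM in N of section 22 in Z (highest, median 0). cox7a2a gave 349 FPKM in CVP of section 6 in M (highest, median 47.9) and 524 FPKM in CV of section 6 in Z (highest, median 248). COX7A2 gave 171 FPKM in CV of section 12 in M (highest, median 14.2) and 25.0 FPKM in N of section 19 in Z (lowest, median 84.7). cox4i2 gave 51.2 FPKM in CVP of section 2 in M (highest, median 0), 22.2 FPKM in N of section 12 in M (highest, median 0), 1.96 FPKM in L of section 15 in M (highest, median 0), 142 FPKM in CA of section 19 in Z (highest, median 7.62) and 50.95 FPKM in CVP of section 19 in Z (highest, median 0). ndufs4 gave 50.7 FPKM in CV of section 6 in M (highest, median 0), 26.7 FPKM in N of section 2 in M (lowest, median 96.1) and 10.7 FPKM in L of section 1 in Z (lowest, median 271). sdhc gave 158 FPKM in CVP of section 17 in M (highest, median 57.2).

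The region differences of M and Z were themselves different, by the joint limma fit, for 7 members. In vascular minus muscle, M minus Z was -4.10 for atp5d, -3.96 for cox7a1, -4.30 for mt-atp8, -1.31 for mt-co1, -1.12 for mt-co2 and -0.995 for mt-co3, and in vascular minus N it was -4.22 for cox8b. mt-atp8 overlaps mt-atp6 on the genome, so counting could split their reads.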

How the results depend on the processing

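Alternatives were run gene by gene for 46 nuclear members and the 13 mt- genes. Of these nuclear members none was called in the opposite direction under the alternatives run, apart from cox5b2, whose difference between vascular regions and N of M was 2.02 with limma-voom on recovered reads although it was at 0 in every library of both groups. The mt- genes depended on scaling. Under quantile scaling, calls in vascular minus muscle came to 3 in M and 1 in Z, in vascular minus N to 3 in M and 4 in Z, and in muscle minus N to 5 in M and 5 in Z. Values that turned sign under quantile scaling in vascular minus muscle were 0.58 for mt-co1, 0.21 for mt-co2, 0.21 for mt-co3 and 0.31 for mt-cyb in M and 0.49 for mt-co3 and 0.18 for mt-nd4 in Z. In vascular minus N they were -0.39 for mt-atp6, -1.25 for mt-co1, -0.77 for mt-co2, -0.42 for mt-co3, -0.66 for mt-cyb, -0.37 for mt-nd1 and -0.23 for mt-nd2 in M. In Z they were -0.58 for mt-atp6, -0.80 for mt-co1, -0.40 for mt-co2, -0.72 for mt-co3, -0.21 for mt-cyb and -0.073 for mt-nd4. In muscle minus N they were -1.83 for mt-co1, -0.98 for mt-co2, -0.63 for mt-co3, -0.97 for mt-cyb, -0.37 for mt-nd1, -0.15 for mt-nd2 and -0.43 for mt-nd4 in M. In Z they were -0.090 for mt-atp6, -1.75 for mt-co1, -0.87 for mt-co2, -1.22 for mt-co3, -0.16 for mt-cyb, -0.48 for mt-nd1 and -0.25 for mt-nd4. Quantile scaling gives every library the same values by rank, so a group of genes at the top of all libraries can differ there by rank alone. Over all genes it changed the calls in vascular minus muscle to 896 higher and 1554 lower in M and 1220 higher and 1093 lower in Z, as against 3495 higher and 977 lower and 3657 higher and 680 lower. It moved the median from 0.71 to 0.15 in M and from 0.65 to 0.06 in Z. In vascular minus N it gave 926 higher and 2018 lower in M and 1349 higher and 1999 lower in Z, as against 461 higher and 4835 lower and 912 higher and 3747 lower. In muscle minus N it gave 1338 higher and 2076 lower in M and 1195 higher and 2232 lower in Z, as against 598 higher and 8973 lower and 578 higher and 6924 lower.

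Nuclear calls in vascular minus muscle stayed within 1.5 times of 83 in M and 80 in Z under all alternatives run. In vascular minus N they came to 25 in M with only the compared regions fitted, and in Z to 10 with no filter on low values, 9 with the mt- genes out of the total, 3 with mt- and marker genes out of it and 2 with limma-voom, which called 5 mt- genes there. In muscle minus N they came in M to 15 with a pseudocount of 0.1, 78 with only the compared regions, 59 with limma-voom and 64 with mt- and marker genes out of the total, and in Z to 59, 19 and 52 under the last 3 of these settings. In CV minus CA calls came in M to 2 with only the compared regions and 3 with limma-voom, and in Z to 2 with no filter, 2 with quantile scaling, 1 with only the compared regions, 1 with limma-voom and 2 without mt- and marker genes. In CVP minus CA they came in M to 0 with only the compared regions, 1 with limma-voom and 10 without the libraries closest to another region, and in Z to 3 with no filter, 1 with only the compared regions, 1 with limma-voom and 2 without mt- and marker genes. In CVP minus CV they came in M to 0 with only the compared regions and 8 without the libraries closest to another region, and in Z to 1 without them. The difference between series in vascular minus N was called for 0 members with a pseudocount of 0.1 and with quantile scaling. The cause of these shifts was not tested. Limma-voom, thinning to 75007 reads in M and 91104 in Z, the libraries closest to another region and the marker genes were chosen after seeing the data.

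Without the replicate block, calls in Z fell to 9 in vascular minus N for nuclear members, 2 in CV minus CA and 3 in CVP minus CA; dropping the block moved no other count by over 1.5 times.

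Leaving out 1 section at a time gave 77 to 83 nuclear calls in vascular minus muscle of M and 76 to 82 in Z, 22 to 39 and 8 to 18 in vascular minus N, and 16 to 27 and 18 to 41 in muscle minus N. For mt- genes it gave 13 to 13 in M and 7 to 10 in Z, 6 to 9 and 9 to 11, and 12 to 13 and 12 to 13 in the same 3 comparisons. Between vessels it gave 2 to 8 in M and 1 to 5 in Z for CV minus CA, 0 to 4 and 1 to 6 for CVP minus CA, and 2 to 6 and 0 to 1 for CVP minus CV, and for the difference between series 3 to 8 in vascular minus muscle and 0 to 1 in vascular minus N. Left minus right muscle stayed at 0 calls under every alternative run.

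With mt- and marker genes out of the total, the section medians of summed levels kept their side of 1. Vascular over muscle was 0.201 in M for mt- genes and 0.106 in M and 0.199 in Z for nuclear genes. Muscle over N was 9.74 in M and 4.67 in Z for mt- genes and 6.71 and 4.60 for nuclear genes. Vascular over N in Z was 2.77 for mt- genes and 0.915 for nuclear genes. Depth limits the vascular libraries of M most, where a nuclear gene at 0 was not detectable at that depth and is not shown to be absent.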

Other observations

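Genes that feed the chain or carry its electrons and nucleotides were also lower in the vascular regions than in muscle. Of the TCA cycle list, which supplies NADH and succinate, 13 lower and 0 higher of 18 tested in M and 14 lower and 0 higher of 19 in Z were called in vascular minus muscle, against 5.35% of all genes called lower in M and 4.11% in Z. In muscle minus N the list gave 0 lower and 4 higher of 18 in M and 1 lower and 7 higher of 19 in Z, where 49.1% of all genes were called lower and 3.27% higher in M, and 41.8% lower and 3.49% higher in Z. mdh2, the mitochondrial malate dehydrogenase, differed there by 2.31 ± 0.66 in M and 2.15 ± 0.53 in Z. Of the carriers, 8 lower and 0 higher of 12 in M and 7 lower and 0 higher of 10 in Z were called in vascular minus muscle. Between muscle and N 2 lower and 5 higher of 12 in M and 1 lower and 6 higher of 10 in Z were called. slc25a4, an exchanger of ADP for ATP across the inner membrane, differed by -6.20 ± 0.63 in M and -6.11 ± 0.59 in Z in vascular minus muscle and by 8.64 ± 0.84 and 6.77 ± 0.79 in muscle minus N. cycsb, a cytochrome c gene, differed by -4.10 ± 0.55 in M and -3.31 ± 0.55 in Z in vascular minus muscle and by 3.35 ± 0.74 and 2.49 ± 0.72 in muscle minus N.

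The machinery that builds the chain was called between muscle and N in few genes, where 49.1% of all genes were called lower in M and 41.8% in Z. Of 76 mitochondrial ribosome genes tested, which translate the mt- mRNAs, vascular minus muscle gave 55 lower in M and 27 lower in Z, against 5.35% and 4.11% of all genes. Vascular minus N gave 33 lower in M, against 26.5% of all genes, and 17 lower in Z, a share near the 22.6% of all genes. Muscle minus N gave 1 lower and 1 higher of 76 in M and 2 lower and 0 higher of 76 in Z. Of the assembly factors outside the rule, 9 lower and 0 higher of 32 in M and 6 lower and 0 higher of 31 in Z were called in vascular minus muscle, against the same 5.35% and 4.11% of all genes called lower, and 4 lower and 1 higher of 32 and 3 lower and 1 higher of 31 in muscle minus N, against 49.1% and 41.8% called lower. cox17, a copper chaperone of complex IV, differed by -3.92 ± 0.67 in M and -2.78 ± 0.66 in Z in vascular minus muscle and by 4.62 ± 0.90 and 3.20 ± 0.88 in muscle minus N.

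Of the genes that copy and read the mitochondrial genome, 2 lower and 0 higher of 17 in M and 1 lower and 2 higher of 17 in Z were called in vascular minus muscle, against 5.35% lower and 19.1% higher of all genes in M and 4.11% and 22.1% in Z. In that comparison 1 gene of this list was called lower in both series, and 1 was called lower in M and higher in Z. Between muscle and N 3 lower and 0 higher of 17 were called in each series, a share below that of all genes called lower. Of the regulators of mitochondrial biogenesis, 1 lower and 2 higher of 8 in M and 1 lower and 1 higher of 8 in Z were called in vascular minus muscle. Between muscle and N 4 lower and 0 higher of 8 in M and 3 lower and 0 higher of 8 in Z were called. ppargc1a, a coactivator of mitochondrial genes in mammals, differed by -2.76 ± 0.61 in M and -2.36 ± 0.52 in Z in vascular minus muscle and was not called in muscle minus N, at 1.02 ± 0.82 in M and -1.01 ± 0.69 in Z. nrf1, a transcription factor of nuclear respiratory genes in mammals, was called lower in muscle than in N, at -3.94 ± 0.89 in M and -3.78 ± 0.91 in Z, where 49.1% of all genes were called lower in M and 41.8% in Z.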
